A study of Mus musculus with 76 samples.

Results

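Granule-positive iHPCs were the single mouse cells in which at least 2 of the 3 genes Mpo, Prtn3 and Ctsg reached 10 TPM. TPM is a gene's share of a cell's transcripts after scaling for gene length, set to the same total of 1000000 in every cell. The cells were thus chosen by their own values of these 3 genes. The rule found 42 of 76 cells (55.3%, exact Clopper-Pearson 95% interval 43.4 to 66.7%), and the other 34, with 0 or 1 of the 3 genes at that level, are called granule-negative. All 76 cells were haematopoietic progenitors derived from pluripotent stem cells that carried inducible Runx1, Hoxa9 and Hoxa10, and they were sorted from culture one by one. Both kinds of cell therefore shared the same introduced factors and differed in no treatment. The sources used here give neither the parental line and clone nor the induction schedule or sort gate. Because the labels tie no cell to a culture, all cells counted as 1 sample. The split rests on values measured in these cells, so every comparison here is a description with no test. Intervals cover the counting of cells only.

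The primary (azurophil) granules of neutrophils and monocytes are filled early, at the stage of the granulocyte-monocyte progenitor and promyelocyte. Mpo encodes myeloperoxidase, a haem enzyme that makes hypochlorous acid. Prtn3 (proteinase 3) and Ctsg (cathepsin G) encode serine proteases that are stored active in the granule after the N-terminal dipeptide is removed by cathepsin C. Transcription factors of the C/EBP family, PU.1, RUNX1 and MYB are known to act on such genes in myeloid progenitors.

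The 3 genes lie on different chromosomes in GRCm38.p6: Mpo at chr11:87793784-87804412, Prtn3 at chr10:79879667-79883174 and Ctsg at chr14:56099885-56102574. Elane, the neutrophil elastase gene, follows Prtn3 at chr10:79886312-79888216. Below are the 250 bases before the RefSeq start of these 4 genes and of Ms4a3, which encodes a membrane protein of granulocyte-monocyte progenitors, at chr19:11629499-11640851. They are shown 5′ to 3′ on the gene's strand. The first 3 chose the cells, and Elane is the neighbour of Prtn3 that reached 10 TPM in few cells. Ms4a3 was the 1 member of the primary granule gene list past the limits used for more frequent genes. Capitals mark matches on either strand to GAGGAA, a PU.1-type motif, TGTGGT, a RUNX motif, or TTGCNNAA, a C/EBP-type motif.
Mpo (chr11:87793534-87793783, plus strand): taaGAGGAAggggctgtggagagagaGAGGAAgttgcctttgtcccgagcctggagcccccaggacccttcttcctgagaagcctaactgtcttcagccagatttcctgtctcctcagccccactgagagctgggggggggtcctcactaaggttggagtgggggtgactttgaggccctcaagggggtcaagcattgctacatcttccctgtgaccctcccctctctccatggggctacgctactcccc
Prtn3 (chr10:79879417-79879666, plus strand): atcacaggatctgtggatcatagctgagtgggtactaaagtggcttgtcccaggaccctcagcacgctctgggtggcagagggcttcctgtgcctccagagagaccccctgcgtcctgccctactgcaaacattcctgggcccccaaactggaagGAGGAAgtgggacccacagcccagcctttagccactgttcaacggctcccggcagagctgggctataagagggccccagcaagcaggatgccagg
Ctsg (chr14:56102575-56102824, minus strand): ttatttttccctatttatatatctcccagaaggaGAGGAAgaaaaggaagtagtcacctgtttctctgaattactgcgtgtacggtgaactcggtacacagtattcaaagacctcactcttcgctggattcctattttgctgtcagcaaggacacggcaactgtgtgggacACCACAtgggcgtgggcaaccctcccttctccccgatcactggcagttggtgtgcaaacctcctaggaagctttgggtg
Elane (chr10:79886062-79886311, plus strand): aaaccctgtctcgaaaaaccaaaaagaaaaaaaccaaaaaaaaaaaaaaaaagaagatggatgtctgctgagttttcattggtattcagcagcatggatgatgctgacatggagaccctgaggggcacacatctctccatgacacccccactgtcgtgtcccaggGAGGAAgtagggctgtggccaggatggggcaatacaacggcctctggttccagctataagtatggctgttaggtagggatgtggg
Ms4a3 (chr19:11640852-11641101, minus strand): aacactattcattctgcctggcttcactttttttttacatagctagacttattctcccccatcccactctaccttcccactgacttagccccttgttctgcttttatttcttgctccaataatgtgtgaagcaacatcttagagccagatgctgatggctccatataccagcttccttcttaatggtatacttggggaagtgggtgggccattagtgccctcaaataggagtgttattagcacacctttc

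GAGGAA was found in the windows of Mpo, Prtn3, Ctsg and Elane and was not found in that of Ms4a3. Of 32851 windows of the same length in the RefSeq table, 23.3% held it on either strand. The letters TGTGGT were found once, in Ctsg as ACCACA on the other strand, and 14% of all windows held them. The letters TTGCNNAA were in none of the 5 windows and in 9.56% of all. No 2 of these matches overlapped. A match describes the letters only.

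The values that chose the cells left a wide gap at the limit. The second highest of the 3 genes, which decides the call, was 89.8, 103 and 107 TPM in the 3 granule-positive cells nearest to 10 TPM, and 4.82, 3.90 and 3.36 TPM in the 3 nearest granule-negative cells. Any limit inside that gap gives the same 42 cells. Prtn3 was at 10 TPM or more in all 42 granule-positive cells, against 13 of 34 granule-negative cells. Mpo was so in 33 granule-positive cells, against 5 granule-negative cells. For Ctsg the numbers were 26 and 2.

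Among granule-positive cells, Prtn3 ran from 94.6 TPM over a median of 537 TPM to 3518 TPM. Their Mpo ran from 0 over 237 to 4053 TPM and their Ctsg from 0 over 151 to 5375 TPM. In granule-negative cells the medians were 1.63 TPM for Prtn3, 1.22 TPM for Mpo and 1.17 TPM for Ctsg, and the highest values were 447, 503 and 870 TPM in the same order. Single granule-negative cells thus reached the range of granule-positive cells for 1 of the genes. Of the 76 cells, 17 had all 3 genes at 10 TPM, 16 had Mpo with Prtn3, 9 had Prtn3 with Ctsg and none had Mpo with Ctsg alone. Another 13 had Prtn3 alone, 5 Mpo alone, 2 Ctsg alone and 14 none. These combinations restate how the cells were chosen. Across the 76 cells, Spearman's rho of log2(TPM + 1) was 0.42 for Mpo with Prtn3, 0.33 for Prtn3 with Ctsg and 0.15 for Mpo with Ctsg. These points share 1 sample and the scaling of TPM.

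**Figure D1:**
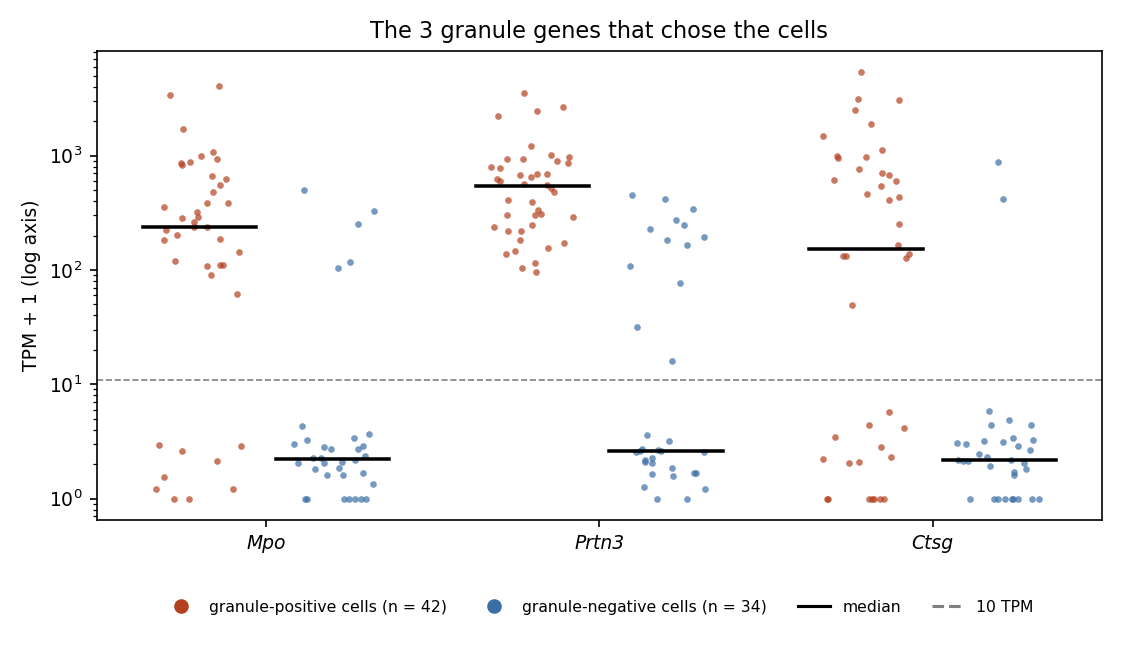
TPM + 1 on a log axis for the 3 genes that chose the cells. Each point is 1 cell, the black bar is the median, and granule-positive cells (n = 42, red) stand left of granule-negative cells (n = 34, blue). Prtn3 is at 10 TPM or more in all 42 granule-positive cells, while Mpo and Ctsg each have cells on both sides of the dashed line at 10 TPM.

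The 2 kinds of cell had similar numbers of genes at 1 TPM or more, with a median of 4254 in granule-positive cells (3093 to 5992) and 4161 in granule-negative cells (2465 to 5871). Library depth is not kept in TPM. A value of 0 cannot be read as absence: Tbp, which every cell uses, was at 10 TPM in 20 of 42 granule-positive and 14 of 34 granule-negative cells. Titles carry a number from 2 to 11. Granule-positive cells were 25 of 37 with numbers 2 to 6 (67.6%, interval 50.2 to 82.0%) and 17 of 39 with numbers 7 to 11 (43.6%, 27.8 to 60.4%). Another division was picked after the data were seen. In it, granule-positive cells were 23 of 30 with numbers 2 to 5 (76.7%, 57.7 to 90.1%) and 19 of 46 with 6 to 11 (41.3%, 27 to 56.8%). They were 3 to 7 of the 9 or 10 cells of each title letter. The labels do not say what the number means, and its part in the results was not tested, and values within ranges of numbers are given for some of the genes and lists.

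The genes more frequent in granule-positive cells included Ccl9, Ms4a3, Il17ra and Csf3r, and those less frequent there included Tcf7 and Trat1. A gene was compared when 10 to 90% of all cells had it at 10 TPM or more. It was called more frequent in granule-positive cells when its share of cells at 10 TPM was at least 25 percentage points higher there and its mean TPM at least 2-fold higher, and less frequent by the same limits the other way. Of 6927 genes compared, 55 were more frequent (0.794%) and 21 less frequent (0.303%). The median difference in share over all genes compared was 2.52 points, with quartiles of -4.48 and 9.10 points. Fixed limits take some genes through cell-to-cell variation alone, and their number is not given here. Which genes passed also depended on the limits and cells used: 19 of the 55 and 8 of the 21 remained when detection was set at 50 TPM, and 29 and 8 without the 15 cells with Tcf7 at 10 TPM.

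The gene with the largest difference was Ccl9, a chemokine gene of myeloid cells. It was at 10 TPM in 36 of 42 granule-positive cells (85.7%, interval 71.5 to 94.6%), against 14 of 34 granule-negative cells (41.2%, 24.6 to 59.3%). Its level ran from 0 over a median of 96.3 TPM to 1496 TPM in granule-positive cells and from 0 over 0.94 to 294 TPM in granule-negative cells, and the means differed 4.02-fold. The groups overlapped, but the highest granule-positive cells lay above every granule-negative one. It was in 24 of 25 granule-positive and 5 of 12 granule-negative cells with title numbers 2 to 6, and in 12 of 17 and 9 of 22 with numbers 7 to 11. Of the cells with 0, 1, 2 and 3 granule genes, 14.3%, 60%, 80% and 94.1% had Ccl9 at 10 TPM.

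Ms4a3 was at 10 TPM in 19 granule-positive cells (45.2%, 29.8 to 61.3%), against 3 granule-negative cells (8.82%, 1.86 to 23.7%). Its highest values were 1812 TPM in granule-positive and 1110 TPM in granule-negative cells, and the medians were 1.80 TPM and 0 TPM. Of the 17 cells with all 3 granule genes, 11 had Ms4a3, against 4 of the 16 with Mpo and Prtn3 and 4 of the 9 with Prtn3 and Ctsg. Within granule-positive cells, 17 of its 19 cells also had Ccl9 and 12 had Csf3r.

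Il17ra, a subunit of the interleukin-17 receptor, was at 10 TPM in 23 granule-positive cells (54.8%) and 5 granule-negative cells (14.7%), with highest values of 259 and 89.2 TPM. Csf3r, the receptor for granulocyte colony-stimulating factor, was so in 15 granule-positive cells (35.7%) and 3 granule-negative cells (8.82%). Csf2rb, the beta chain shared by the GM-CSF, interleukin-3 and interleukin-5 receptors, was so in 26 (61.9%) and 12 (35.3%). Both lay close to the limit of 25 points. In cells with at least 3500 genes the difference was 20.5 points for Csf3r and 24.6 points for Csf2rb. Without the cells with Tcf7 at 10 TPM it was 22.3 points for Csf3r and 11.5 points for Csf2rb, and without those with Lck at 10 TPM 27.2 and 5.68 points. Csf3r was in 10 of 25 granule-positive and 0 of 12 granule-negative cells with title numbers 2 to 6, and in 5 of 17 and 3 of 22 with numbers 7 to 11. Over all cells, Csf3r and Csf2rb were the 2 of 16 compared myeloid receptor genes past the limits, against 0.794% of all genes. Il17ra was not in the myeloid receptor list. The list's median difference was 6.16 points, and 5 of the 16 had a lower share in granule-positive cells. These were Cd93 (50% of granule-positive and 61.8% of granule-negative cells), Il3ra (16.7% and 26.5%) and Clec12a (14.3% and 20.6%). The other members were Itgb2 (40.5% and 44.1%) and Ifngr1 (81.0% and 82.4%). Csf3r reached the share of cells needed to be compared through the granule-positive cells. Csf1r, the receptor for macrophage colony-stimulating factor, was in 13 granule-positive and 4 granule-negative cells and missed the 25-point limit. It was in 9 of 25 granule-positive and 0 of 12 granule-negative cells with title numbers 2 to 6, but in 4 of 17 and 4 of 22 with numbers 7 to 11. Csf2ra, with 15 and 8 cells, also missed the limit. The receptor adaptors Fcer1g and Tyrobp were at 10 TPM in all 76 cells, with medians of 1805 and 2076 TPM in granule-positive cells, against 1679 and 2016 TPM in granule-negative cells.

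**Figure D2:**
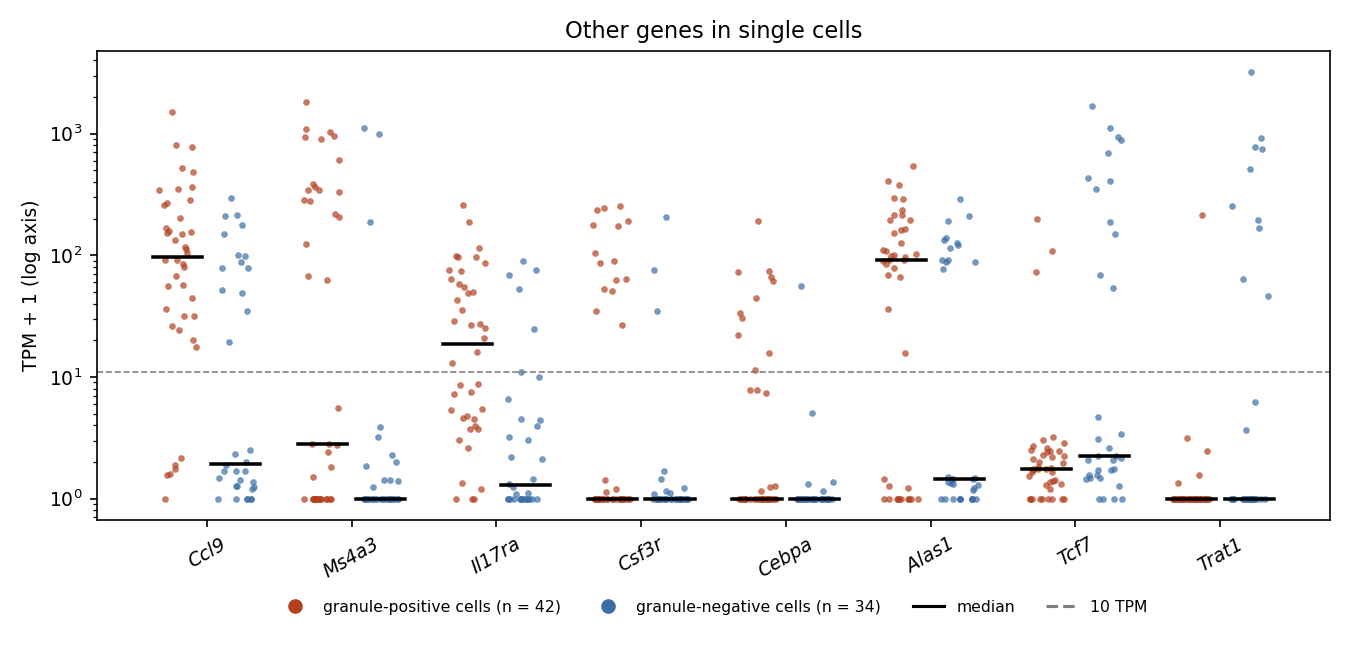
TPM + 1 on a log axis for 8 other genes, 1 point per cell, with granule-positive cells (n = 42, red) left of granule-negative cells (n = 34, blue) and the median as a black bar. Ccl9 has 36 granule-positive cells above the dashed line at 10 TPM and Cebpa 11, whereas Tcf7 has 3 granule-positive and 12 granule-negative cells above it.

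Of 28 myeloid regulator genes, 12 were in too few cells to be compared, and 5 of these were at 10 TPM in no cell. The 15 compared members had a median difference of 12.9 points, against 2.52 points over all genes. Of the 15, 12 had a higher share in granule-positive cells. The 15 do not stand for the whole list. The list's median was 4.97 points in cells with at least 3500 genes at 1 TPM, 4.33 points within title numbers 2 to 6, where 6 of the 15 had a lower share, and 16.8 points within numbers 7 to 11. Only Id1, an inhibitor of E proteins, was past both limits, which is 1 of the 15, against 0.794% of all genes. It was at 10 TPM in 34 granule-positive cells (81.0%) and 16 granule-negative cells (47.1%). Without the cells with Tcf7 at 10 TPM the difference for Id1 was 20.4 points, which falls short of the limit in points. Cebpa, which encodes the C/EBP factor of early granulocyte-monocyte commitment, was at 10 TPM in 11 granule-positive cells (26.2%, 13.9 to 42%), against 1 granule-negative cell (2.94%, 0.07 to 15.3%). Its difference of 23.2 points fell short of the limit. Cebpa reached the share of cells needed to be compared through the granule-positive cells. Of the 12 Cebpa cells, 11 had at least 2 granule genes, 6 had all 3, and 10 of the 11 granule-positive ones had title numbers 2 to 6. Within numbers 7 to 11, Cebpa was in 1 granule-positive cell and 1 granule-negative cell, against 10 and 0 within numbers 2 to 6.

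Cebpb, another C/EBP family gene, was at 10 TPM in 40 of 42 granule-positive cells (95.2%) and 28 of 34 granule-negative cells (82.4%). Its median level was higher in granule-positive cells. The median was 268 TPM in granule-positive cells (quartiles 186 and 410.5 TPM) and 97.0 TPM in granule-negative cells (53.8 and 247 TPM). Cebpd was in 15 granule-positive and 6 granule-negative cells, and Irf8, a regulator of monocyte and dendritic fate, in 27 and 15. Gfi1, a repressor needed for granulocytes, went the other way, with 7 granule-positive and 9 granule-negative cells. Sfpi1, the older symbol of the PU.1 gene, was in 40 and 30 cells with medians of 578 and 417 TPM. Myb was in 33 and 20 cells. Cebpe, which acts later in granulocyte maturation, was in 1 granule-positive cell and no granule-negative cell.

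The genes of the primary granule list, which leaves out Mpo, Prtn3 and Ctsg, varied widely in their differences. They ran from -18.6 points for Prss57 to 36.4 points for Ms4a3. Of 19 genes of this list with values, 10 were compared, 4 were at 10 TPM in over 90% of cells and 5 were in under 10%. Ms4a3, a membrane protein gene, was the 1 of the 10 past the limits, against 0.794% of all genes. It reached the share of cells needed to be compared through the granule-positive cells. The median difference of the 10 was 6.44 points. Serglycin (Srgn), the proteoglycan core of granules, was in every cell, with medians of 1193 TPM in granule-positive and 1388 TPM in granule-negative cells. Ctsc, the protease that activates Prtn3 and Ctsg, had medians of 300.2 and 246 TPM. Cst7 had 514 and 493 TPM, and Serpinb1a, an inhibitor of these proteases, 747 and 635 TPM. Lyz2 (lysozyme) was in 21 granule-positive cells (50%), against 9 granule-negative cells (26.5%).

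Elane and Prss57, serine protease genes near Prtn3 on chromosome 10, had few cells at this level. Elane was at 10 TPM in 2 of 42 granule-positive cells, both with all 3 granule genes, and in 0 of 34 granule-negative cells, where the limit set by a count of 0 is 8.82% (3 counts). Prss57, which encodes neutrophil serine protease 4, was in 7 granule-positive cells (16.7%) and 12 granule-negative cells (35.3%), a difference of -18.6 points that was the lowest of the list. It was in 35.7%, 35%, 20% and 11.8% of the cells with 0, 1, 2 and 3 granule genes. Genes of later granules were seldom at this level. Of 18 later granule genes, 14 were in the table. Of these, 8 were at 10 TPM in no cell, S100a8, S100a9, Camp and Ngp among them, and Anxa1 alone was in over 10% of cells.

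**Figure D3:**
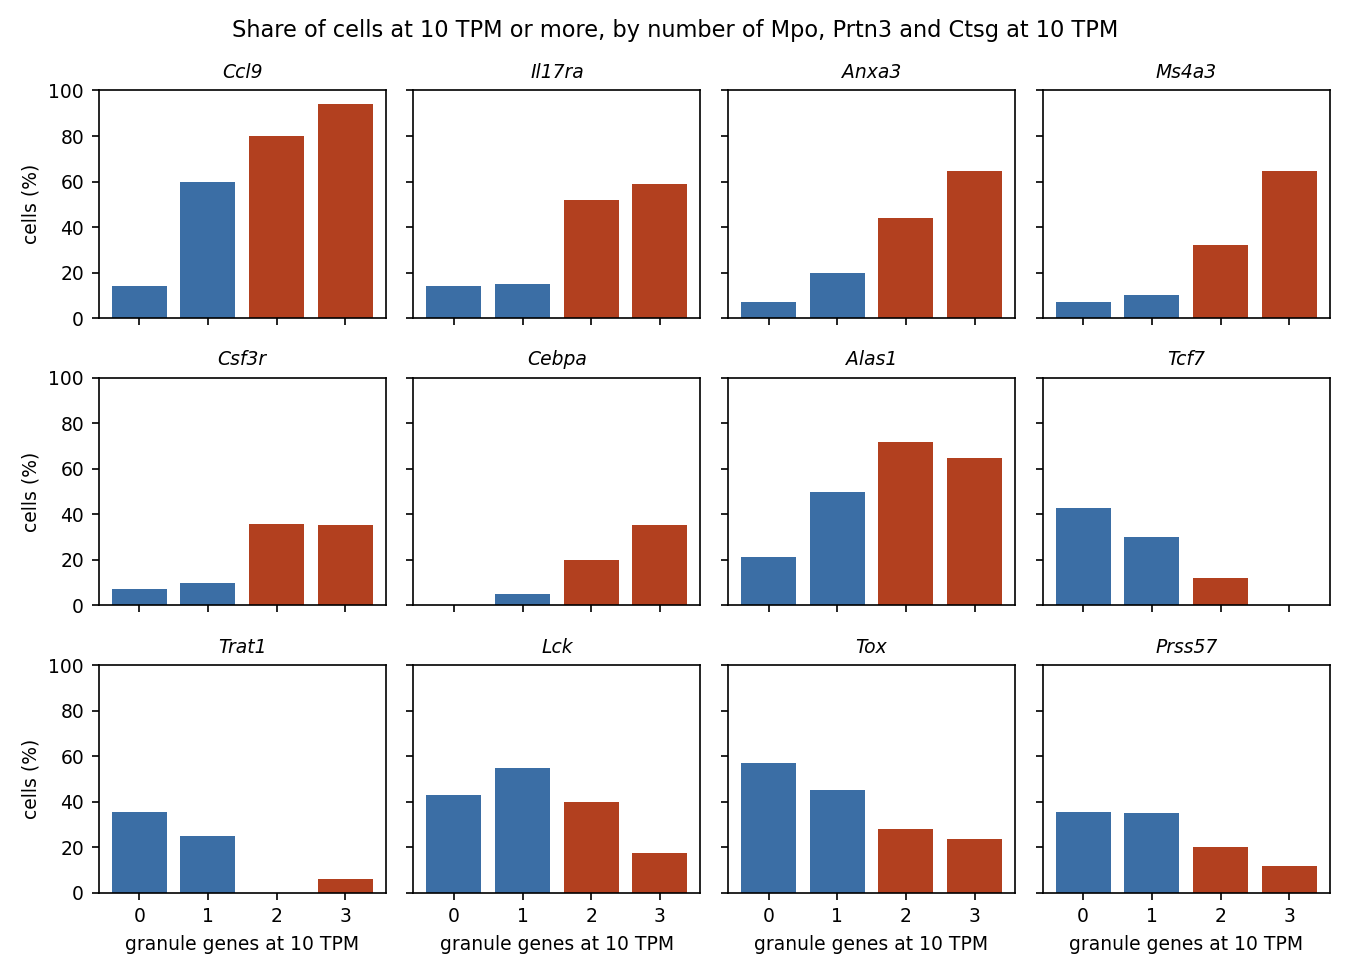
Share of cells (%) at 10 TPM or more for 12 genes, by how many of Mpo, Prtn3 and Ctsg reached 10 TPM: 0 (n = 14), 1 (n = 20), 2 (n = 25) or 3 (n = 17), with granule-negative cells in blue and granule-positive cells in red. Ms4a3 is in 7.14%, 10%, 32% and 64.7% of them, and Tcf7 in 42.9%, 30%, 12% and 0%.

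A gene of haem supply and a gene of the lysosome appeared among the more frequent ones. Alas1, the rate-limiting enzyme of haem synthesis outside red cells, was at 10 TPM in 29 granule-positive cells (69%, 52.9 to 82.4%), against 13 granule-negative cells (38.2%, 22.2 to 56.4%). Without the cells with Tcf7 at 10 TPM the difference for Alas1 was 21.2 points, which falls short of the limit in points. The other 9 compared haem genes were not past the limits. Aga, which encodes a lysosomal amidase, was in 20 granule-positive cells, against 5 granule-negative cells. It was not in the lysosome list, where 0 of 19 compared members were past the limits and the median was 2.52 points. Over all genes compared, 0.794% were more frequent, so these counts of haem and lysosome genes say little.

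Other genes among the 15 largest differences belonged to no one group. Anxa3, an annexin abundant in neutrophils, was in 22 granule-positive and 5 granule-negative cells. Atg3, an enzyme of autophagy, was in 36 and 15. Ier3, an immediate early gene, was in 29 and 10, and Fam111a in 22 and 4. Fam111a was in 10 of 25 granule-positive and 2 of 12 granule-negative cells with title numbers 2 to 6, and in 12 of 17 and 2 of 22 with numbers 7 to 11. St8sia4, which makes polysialic acid, was in 35 and 15, and Dnajc10, a disulfide reductase of the endoplasmic reticulum, in 29 and 11. Xpc, a sensor of DNA damage, was in 27 and 10, and the glutamate receptor gene Gria2 in 26 and 10. Slc5a6, a vitamin transporter gene, was in 14 granule-positive cells and in 0 granule-negative cells (limit 8.82%). Within title numbers 2 to 6 and also within 7 to 11, 12 of the 55 genes were past both limits: Alas1, Anxa3, Ccl9, Il17ra, Ktn1, Ms4a3, Nov, Slc2a6, Slc5a6, St8sia4, Telo2 and Ugt1a7c. These ranges hold the same cells that chose the 55 genes.

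**Figure D4:**
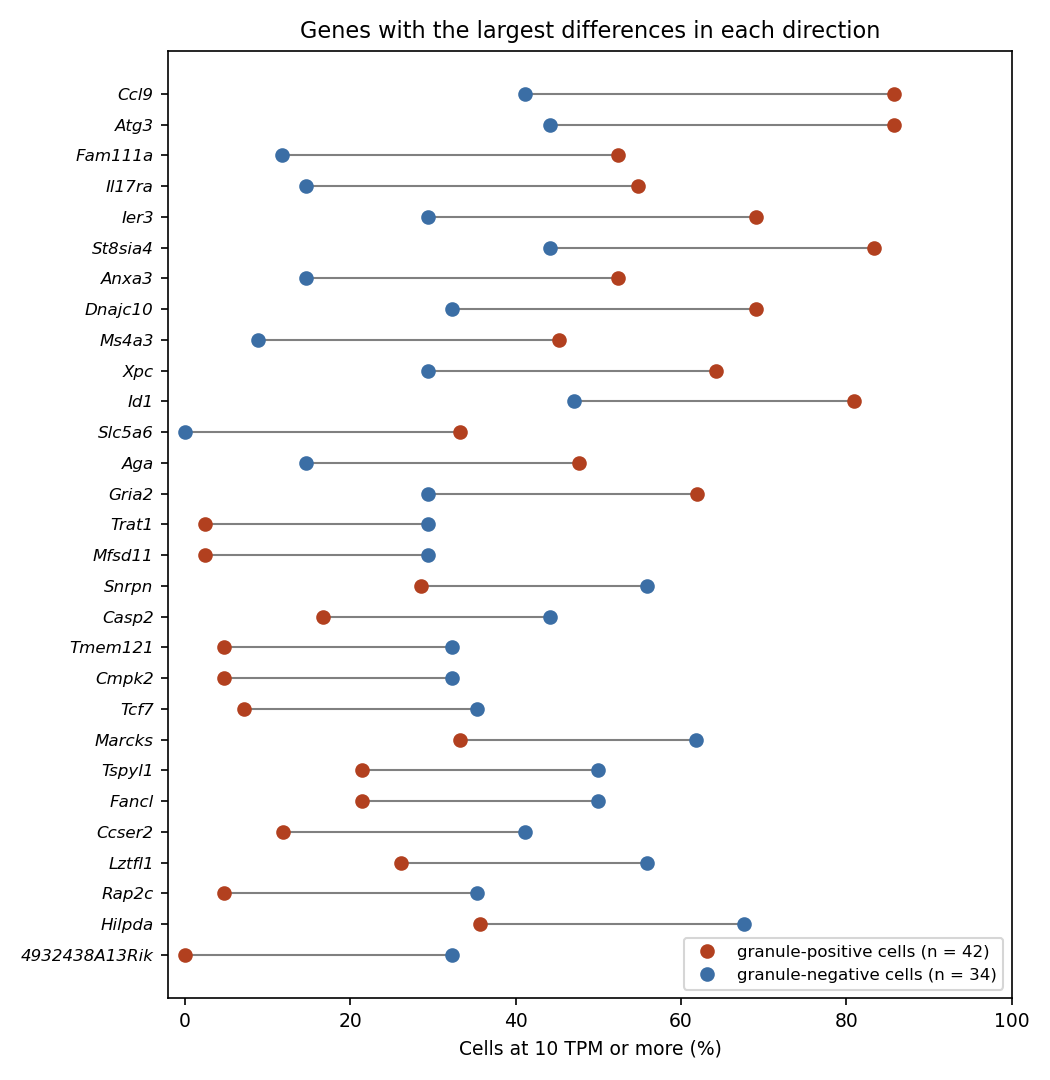
Share of cells (%) at 10 TPM or more in granule-positive (n = 42, red) and granule-negative cells (n = 34, blue) for 14 of the 15 genes with the largest positive differences and the 15 with the largest negative ones among those past both limits. Ccl9 is at 85.7% and 41.2%, and 4932438A13Rik is at 0% in granule-positive cells.

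The T lineage genes Tcf7 and Trat1 were past the limits as less frequent in granule-positive cells, against 0.303% of all genes. Of 20 T lymphoid genes, 13 were in too few cells to be compared. The other 7 had differences of -28.2 to -5.60 points, with a median of -23.8 points. Tcf7 and Trat1 reached the share of cells needed through the granule-negative cells, so the 7 do not stand for the whole list. Tcf7, the transcription factor gene of early T cell commitment, was at 10 TPM in 3 granule-positive cells (7.14%, 1.5 to 19.5%), against 12 granule-negative cells (35.3%, 19.7 to 53.5%). Its highest values were 197 TPM and 1687 TPM. Trat1, an adaptor of the T cell receptor, was in 1 granule-positive cell at 213 TPM and in 10 granule-negative cells, with up to 3205 TPM. In granule-negative cells all 10 Trat1 cells had Tcf7, and in granule-positive cells no cell had both.

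Gata3, needed for T cells, was in 6 granule-positive and 13 granule-negative cells, Tox in 11 and 17, the kinase gene Lck in 13 and 17, and Cd7 in 8 and 11. At most 6 of the 20 T lymphoid genes were found in a granule-positive cell and at most 10 in a granule-negative cell, with medians of 2 and 3. The median difference was -30 points within title numbers 2 to 6 and -25.9 points within 7 to 11. Tcf7 is itself on the list, and 12 of its 15 cells were granule-negative. Without those cells the median difference of the 7 members was 0.35 points, Lck was in 10 of 39 granule-positive and 5 of 22 granule-negative cells, and Trat1 in 1 and 0. Gata3 was then in 6 and 6. Leaving those cells out fixed the difference of Tcf7 at 0 and removed all 10 granule-negative cells with Trat1. The median of 0.35 points is therefore partly set by that choice. Of the lists of other lymphoid cells, 0 of 11 early lymphoid, 0 of 2 B lymphoid and 0 of 4 NK and innate lymphoid genes compared were past the limits. Those counts say little, since 0.794% of all genes compared were more frequent and 0.303% less frequent.

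The 3 granule-positive cells with Tcf7 carried transcripts of both kinds of gene. The first had 108 TPM of Tcf7, 109.6 TPM of Mpo and 563 TPM of Prtn3. The second had 71.7 TPM of Tcf7, 798 TPM of Prtn3 and 464 TPM of Ctsg. The third had 197 TPM of Tcf7, 1072 TPM of Mpo and 932 TPM of Prtn3. They held 5, 4 and 4 of the T lymphoid genes at 10 TPM. No cell with all 3 granule genes had Tcf7 at 10 TPM. Each library was made from a sorted cell, but no doublet caller was run. Whether any of these libraries held more than a single cell was not tested.

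Among other genes less frequent in granule-positive cells, Hilpda, a lipid droplet gene induced by low oxygen, was in 15 granule-positive cells (35.7%) and 23 granule-negative cells (67.6%). Marcks, a substrate of protein kinase C, was in 14 and 21, Casp2, a caspase, in 7 and 15, and Fancl, a ubiquitin ligase of DNA crosslink repair, in 9 and 17. Snrpn was in 12 and 19, Lztfl1 in 11 and 19, Tspyl1 in 9 and 17 and Ccser2 in 5 and 14. Rap2c, Cmpk2 and Tmem121 were each in 2 granule-positive cells, against 12, 11 and 11 granule-negative cells, and Mfsd11 was in 1 and 10. Cmpk2 was in 1 of 25 granule-positive and 7 of 12 granule-negative cells with title numbers 2 to 6, and in 1 of 17 and 4 of 22 with numbers 7 to 11. The gene 4932438A13Rik was in 0 granule-positive cells, where the limit set by a count of 0 is 7.14% (3 counts), and in 11 granule-negative cells. Crip1 and Patz1 were also past the limits, with 25 and 16 granule-positive and 29 and 22 granule-negative cells. In both ranges of title numbers, 4 of the 21 genes were past the limits: 4932438A13Rik, Hilpda, Lztfl1 and Tcf7. The ranges hold the same cells that chose the 21 genes.

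Of 876 genes at 10 TPM in over 90% of cells, 14 (1.60%) had a median at least 1.5-fold higher in granule-positive cells and 10 (1.14%) at least 1.5-fold lower. Psap, which encodes the precursor of the lysosomal saposins, had medians of 349 TPM in granule-positive and 172 TPM in granule-negative cells. Cox4i2, an isoform of a cytochrome oxidase subunit, had 700.3 and 391 TPM, Pnp, an enzyme of purine salvage, 367 and 199 TPM, and Tspan4 517 and 284 TPM. Lower medians were found for Cox20 (111 and 213 TPM), Nt5c (226 and 407 TPM), Sec62 (38.2 and 65 TPM), Dpm3 (167 and 282 TPM) and Erdr1 (86.6 and 158 TPM). Every one of these genes overlapped widely between the 2 kinds of cell, with Psap at 1.91 to 790.5 TPM in granule-positive and 0.85 to 682 TPM in granule-negative cells. By the ratio of means, 5 genes were higher, of which 3 were among the 14, and 9 were lower, of which 3 were among the 10. Psap was not among those 5, at 1.38-fold.

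**Figure D5:**
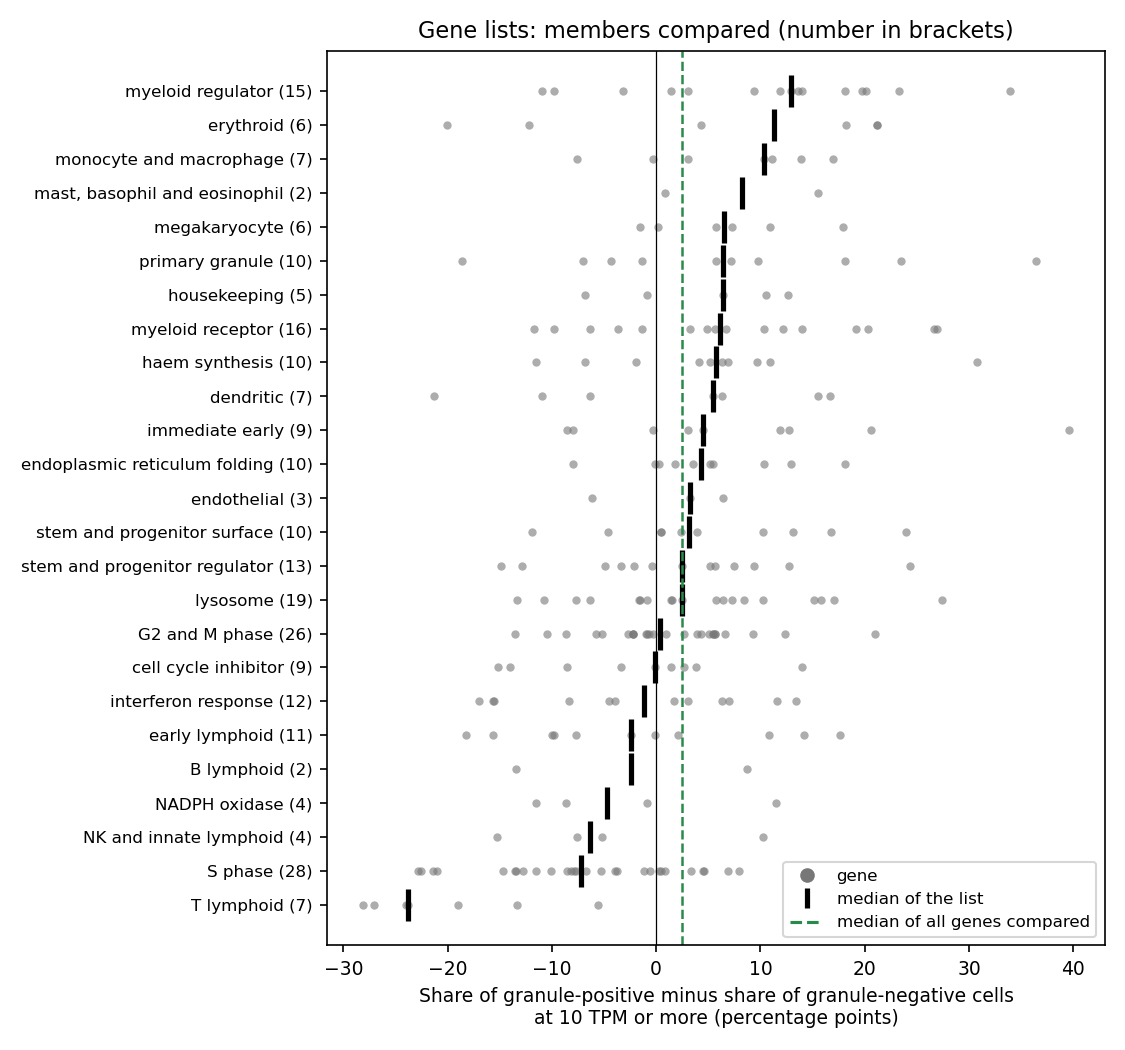
Difference between the shares of granule-positive and granule-negative cells at 10 TPM or more (percentage points) for each compared gene of the 25 lists with at least 2 compared genes (the later granule list, with 1, is left out), with the list median as a black bar and the median of all 6927 genes compared, 2.52 points, as a dashed line. Of these 25, the myeloid regulator list has the highest median (12.9 points) and the T lymphoid list the lowest (-23.8 points).

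Stem and progenitor genes were found in both kinds of cell. Of 10 surface genes and 13 regulators compared, none was past the limits, which is no result about them, since about 1% of all genes were. The median differences were 3.15 and 2.52 points. The largest were just under the limit. Lmo2, a transcriptional adaptor of blood stem cells, was at 10 TPM in 71.4% of granule-positive and 47.1% of granule-negative cells, and the integrin gene Itga6 in 35.7% and 11.8%. Cd34 had medians of 645 TPM in granule-positive and 734 TPM in granule-negative cells, and Cd48 had 994 and 716 TPM. Kit was in 16 and 17 cells, Flt3 in 22 and 17, Ly6a in 29 and 19 and Gata2 in 16 and 18. The introduced factor Runx1 was in 41 and 29 cells with medians of 102 and 87.4 TPM. Hoxa9 was in 6 and 5 cells and Hoxa10 in 11 and 7. Transcripts of the introduced and the native copies cannot be told apart in these values.

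Cell cycle genes differed by range of title numbers. Of the 28 S phase genes compared, none was past the limits. That count says little, since 0.794% of all genes compared were more frequent and 0.303% less frequent. The median difference of the 28 was -7.21 points, against 2.52 points over all genes compared. It was -12.3 points in cells with at least 3500 genes at 1 TPM, where 24 of the 28 had a lower share in granule-positive cells. A granule-positive cell had a median of 11 of 30 S phase genes at 10 TPM (6 to 30) and a granule-negative cell 17.5 (3 to 29). Within numbers 2 to 6 the medians were 10 and 18.5 genes, whereas within numbers 7 to 11 they were 18 and 17. The median difference was -18.7 points in the first range and 5.61 points in the other. The 26 G2 and M phase genes compared had a median difference of 0.35 points.

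The counts of the other lists say little, since about 1% of all genes were past the limits. Of the lists of other blood cells, 0 of 7 monocyte and macrophage, 0 of 7 dendritic, 0 of 2 mast cell, basophil and eosinophil, 0 of 6 erythroid and 0 of 6 megakaryocyte genes compared were past the limits, with median differences of 10.4, 5.46, 8.19, 11.3 and 6.51 points. The 3 endothelial genes compared had a median of 3.22 points. Among cell functions, none of the genes compared was past the limits for folding in the endoplasmic reticulum (10 genes, median 4.34 points), the NADPH oxidase (4 genes, -4.76 points), the interferon response (12 genes, -1.12 points) or cell cycle inhibitors (9 genes, -0.14 points). Ier3 was the only one of 9 immediate early genes past them (median 4.48 points). The 5 housekeeping genes compared had a median of 6.44 points, and of 10 widely detected ones, Tubb5, a tubulin, had lower medians in granule-positive cells (212 TPM, against 332 TPM in granule-negative cells).

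Genes were also ranked by how closely they followed the mean log2(TPM + 1) of Mpo, Prtn3 and Ctsg across the 76 cells. The highest values of Spearman's rho belonged to Ccl9 (0.53), Ms4a3 (0.50), Cox4i2 (0.47), Cebpa (0.46), Dnajb11 (0.44), Srsf6 (0.41), Il17ra (0.41), Anxa3 (0.40), Cebpb (0.40) and Snora70 (0.40). Pearson's r was 0.54 for Ccl9 and 0.29 for Dnajb11, which encodes a chaperone of the endoplasmic reticulum. The same mean had a rho of 0.14 with the number of genes at 1 TPM. All points share 1 sample and the scaling of TPM. The mean was built from the genes that chose the cells, in those same cells. The ranking is therefore no separate evidence for the differences in share.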

How the data were processed

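Whole transcriptomes of 76 sorted single mouse cells were amplified (Discover-sc WTA Kit V2) and sequenced as TruePrep (V2) libraries, per the labels' protocols. The authors deposited 1 table of TPM, scaled to 1000000 per cell over 15192 listed genes, so depth per cell is unknown. The submitters' processing notes name StringTie 1.3.4, HISAT2 2.1.0, SAMtools 0.1.19, bcl2fastq and the build mm10, with no order; the annotation is not given in the sources used here. Of all values, 66.3% were 0.

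Cells were split by the rule in the opening, and shares at 10 TPM, medians and means were computed in Python 3.11.15 with numpy 2.4.6, pandas 2.3.3 and scipy 1.17.1, with figures from matplotlib 3.10.9. All cells belong to 1 labelled group, so no test was made. The procedure was tested on simulated data. Correlations used log2(TPM + 1). There were 26 gene lists with 502 genes; the table holds 474, with 6 under an older symbol. Promoters and coordinates come from RefSeq for GRCm38.p6, in which 92.3% of the listed symbols are found. The cells, lists and limits were chosen with earlier results of these data known. Genes were named by a rule: the 15 largest differences in share each way, the 5 largest ratios of medians each way, all primary granule genes, the frequent members of other lists and the 10 highest rho; 2 genes this names are not reported here. Further named genes were picked with their values known, such as Cebpd, Cebpe, Csf1r, Csf2ra, Flt3, Gata2, Gata3, Gfi1, Hoxa9, Hoxa10, Irf8, Itga6, Kit, Lmo2, Ly6a and the genes past limits in both ranges of title numbers. Alternatives changed the granule gene limit, detection limit, filter, size scale, pseudocount, scaling and cells used.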

Additional observations from a re-analysis of the deposited data

How the results depend on the processing

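All values are descriptions; settings with fewer cells move shares in larger steps. Title numbers 6 to 11 and the removal of cells with Lck at 10 TPM were added after seeing the data. Granule-positive cells were 88.2% of cells with the 3 genes at 1 TPM, 67.6% in title numbers 2 to 6 and 41.3% in numbers 6 to 11. More frequent genes numbered 172 with the granule genes at 1 TPM (67 and 9 cells), 413 for all 3 genes against none (17 and 14 cells), 34 with compared genes at 50 TPM, 110 with a log2 size limit at either pseudocount, 180 and 272 in title numbers 2 to 6 and 7 to 11, 198 in 6 to 11, 99 without Tcf7 cells and 169 without Lck cells. Less frequent genes numbered 200 with the granule genes at 1 TPM, 181 for all 3 against none, 36 in cells with at least 3500 genes, 321, 98 and 80 in the 3 ranges of numbers, 32 without Tcf7 cells and 81 without Lck cells. Of the main 55 and 21, 14 and 8 were kept with the granule genes at 1 TPM, 19 and 8 with compared genes at 50 TPM, 26 and 3 without Lck cells, 35 and 18 in cells with at least 3500 genes, 29 and 8 without Tcf7 cells, and 35 and 16 with the granule genes at 100 TPM. Widely detected genes with higher medians numbered 61 and 99 (granule genes at 1 TPM, all 3 against none), 37 (compared genes at 1 TPM), 26 (3500 genes), 67, 32 and 34 (ranges of numbers) and 26 (without Tcf7 cells), and 5 by means. Those with lower medians numbered 35, 74, 31, 20, 45, 41, 34 and 22 under the same settings other than means. Differences changed sign with the granule genes at 1 TPM for Aga (-0.50 points), St8sia4 (-0.995), Mfsd11 (3.81), Rap2c (8.29) and Dpm3 (log2 ratio 0.29). Dpm3 did so for all 3 genes against none (1.02) and Trat1 without Tcf7 cells (2.56 points). Of 704 values for 49 genes, 604 stayed within the interval of the main share or 1.5-fold of the main ratio, 93 did not and these 7 turned. The 604 include 39 values from each of 3 settings that could not change a gene's share difference. Those settings were no limit on the share of cells and the log2 size limit at either pseudocount. No paired analysis was possible because all cells form 1 group. Transcripts missed in a cell limit every share, and depth is unknown.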

Other observations

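Of the granule genes of mast cells and basophils, 2 were compared and neither was past the limits. Cpa3, a mast cell protease gene, was at 10 TPM in 30 of 42 granule-positive cells (71.4%) and 24 of 34 granule-negative cells (70.6%), but its median was 62.2 TPM in granule-positive and 463 TPM in granule-negative cells, with highest values of 12341 and 23326 TPM. Mcpt8, a protease gene of basophils, was in 9 granule-positive and 2 granule-negative cells, and its highest values were 7380 and 171 TPM. In granule-positive cells 8 of the 9 Mcpt8 cells also had Ms4a3, and neither of the granule-negative ones did.

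Hes1, a target gene of Notch, and Lcp2, an adaptor of antigen receptor signalling, were among the genes with the lowest rho with the 3 granule genes and were named after their values were seen. Hes1 was at 10 TPM in 2 granule-positive and 9 granule-negative cells, and Lcp2 in 20 and 24. Car2, a carbonic anhydrase gene of the erythroid list, was in 20 and 23, with medians of 7.24 and 236 TPM. The adult beta-globin genes were in 41 granule-positive cells each and in 26 or 27 granule-negative cells; Hbb-b1, Hbb-b2 and Beta-s are near-identical, so reads can be exchanged between them.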
